A study of Mus musculus with 4 samples.

Results

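Type 1 conventional dendritic cells (cDC1) of the mouse hindpaw were followed through 4 single-cell RNA libraries of CD45+ leukocytes. The cells were chosen by their own transcript counts, in unique molecular identifiers (UMIs, 1 per captured transcript). A cell was kept when it had at least 200 detected genes and at most 10% of its UMIs from mitochondrial genes. It was counted as cDC1 when it held at least 1 UMI of Xcr1, at least 2 of Irf8 and at least 5 of H2-Aa, fewer than 5 of C1qa, C1qb and C1qc together, and 0 of Cd3e. This rule found 276 cells of 27800 kept, and the levels of these genes in the 276 cells describe the choice and are not a finding.

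Each condition was 1 library, made from the pooled hindpaws of 2 to 3 male mice. The Lepr db/db mice (DB), of the C57BLKS/J-Dock7m +/+ Leprdb strain, carry a loss-of-function allele of the leptin receptor in all tissues and become obese and hyperglycemic. Their Lepr WT/WT littermates (WT) were the controls. Mice were 12 weeks old (labelled young) or 21 weeks old (labelled aged), and groups are named by age and genotype. Values below are given for 12-week-WT first, then 12-week-DB, then 21-week-WT, and 21-week-DB last. Pooling left no measure of the spread between mice, so no test was made between conditions, and every interval between libraries is a 95% interval that covers counting error only. The tests reported below compare cell classes inside the same libraries, with the library as the replicate. The genotype could not be checked here, since UMI counts per gene do not show which allele is present. Lepr was at 0, 1.53, 0.418 and 0 CPM in cDC1 (CPM, the UMIs of a gene per 1000000 UMIs of its class and library).

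The cDC1 lineage depends on the transcription factors IRF8 and BATF3 and on the growth factor FLT3L. XCR1, on its surface, is the receptor for the chemokine XCL1, which NK cells and activated T cells secrete, and CLEC9A binds actin filaments laid bare on dead cells. The lineage is known for cross-presentation, the loading of peptides from engulfed material onto MHC class I. In skin, many cDC1 carry the integrin CD103 (Itgae) and langerin (Cd207), a lectin that also marks Langerhans cells of the epidermis, while type 2 conventional dendritic cells (cDC2) carry SIRPα and depend on IRF4.

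The deposited matrices held 5998, 7463, 8208 and 9124 barcodes with 47851794, 57025899, 69626521 and 54989592 UMIs, of which 5271, 6552, 7270 and 8707 barcodes were kept. The median kept cell had 7390, 7193.5, 8000.5 and 5355 UMIs, so the 21-week-DB library was the shallowest per cell. The cDC1 were deeper than the average cell, with medians of 13698, 13775, 16855 and 14757.5 UMIs, and a median of 2.62%, 2.43%, 2.96% and 2.04% of their UMIs was mitochondrial. Summed over cells they gave 1214943, 655669, 2392840 and 60174 UMIs, and a gene with 0 UMIs could therefore still be present at up to 2.47, 4.58, 1.25 and 49.9 CPM. The last value is large because the 21-week-DB library held few members, and all of its levels rest on 4 cells. The 21-week libraries had 154 barcode sequences in common and the 12-week libraries 41. The cDC1 of one library had a barcode in another library in 1 case, and no barcode was cDC1 in both. Doublet scoring marked 2, 0, 4 and 0 members as likely doublets.

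The number of cDC1 was lower in both DB libraries than in the WT library of the same age. At 12 weeks WT gave 89 cDC1 and DB 45, and at 21 weeks WT gave 138 and DB gave 4. As a share of kept cells this was 1.69% (exact Clopper-Pearson interval 1.36 to 2.07), 0.687% (0.501 to 0.918), 1.90% (1.60 to 2.24) and 0.0459% (0.0125 to 0.118). The 2 WT intervals overlap, and each DB interval lies below that of the WT library of its age. The share in DB was 0.407 times that in WT at 12 weeks (0.278 to 0.589) and 0.0242 times at 21 weeks (0.00650 to 0.0634). Between ages the ratio was 1.12 in WT (0.855 to 1.48) and 0.0669 in DB (0.0175 to 0.184). The WT ratio depended on the limits. It was 1.46 (1.135 to 1.88) when a UMI of either Xcr1 or Clec9a was enough. With fewer than 2 C1q UMIs it was 1.42 (1.04 to 1.94).

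A smaller share of cDC1 may accompany a smaller share of all antigen-presenting cells, and these were counted by the same limits on H2-Aa, C1q and Cd3e. They made up 24.5%, 15.2%, 26.2% and 4.94% of kept cells. Within them, cDC1 were 6.90%, 4.53%, 7.25% and 0.930%, which gave a ratio of DB to WT of 0.657 (0.448 to 0.95) at 12 weeks and 0.128 (0.0345 to 0.336) at 21 weeks. So the antigen-presenting compartment held a smaller fraction of the 21-week-DB library, and cDC1 also held a smaller fraction of that compartment. The cDC2, defined by the same limits with 0 UMIs of Xcr1 and Cd207 and at least 2 of Cd209a and Mgl2 together, numbered 604, 484, 920 and 207. They stayed between 46.8% and 48.7% of antigen-presenting cells in every library. For each 100 cDC2 there were 14.7, 9.30, 15 and 1.93 cDC1, and the DB to WT ratio of this quotient was 0.631 (0.431 to 0.913) at 12 weeks and 0.129 (0.0346 to 0.337) at 21 weeks. Cells with langerin but without Xcr1, the Langerhans-like cells (at least 2 UMIs of Cd207), numbered 11, 27, 13 and 13, or 0.853%, 2.72%, 0.683% and 3.02% of antigen-presenting cells. Doublet scoring marked more of these than of cDC1, and 11, 22, 9 and 7 were left without likely doublets. Their share of that compartment was higher in DB than in WT at both ages, but of kept cells they were 0.209%, 0.412%, 0.179% and 0.149%, with a DB to WT ratio of 1.98 (0.948 to 4.41) at 12 weeks and 0.835 (0.357 to 1.96) at 21 weeks. Whether the mice of a condition differ from each other in these shares, and how tissue dissociation and the CD45+ sort affect them, was not tested.

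**Figure D1:**
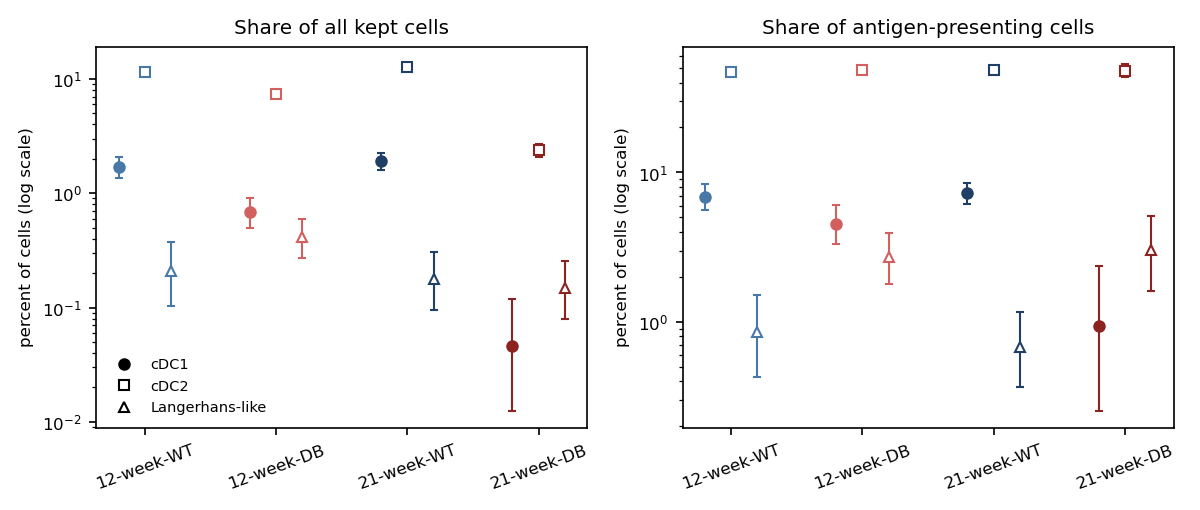
Percent of all kept cells (left) and of antigen-presenting cells (right) held by cDC1 (filled circles), cDC2 (open squares) and Langerhans-like cells (open triangles) in each library, on a log axis with 95% Clopper-Pearson intervals. The cDC1 share is 0.0459% of kept cells in 21-week-DB, whereas the cDC2 share of antigen-presenting cells lies between 46.8% and 48.7% in all 4 libraries.

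The counts depend on depth, since a cell must show an Xcr1 transcript to be counted. After each cell was thinned to 2000 UMIs, 42 of 4917, 15 of 6056, 55 of 6674 and 0 of 7240 cells met the rule. The 0 in 21-week-DB allows a share of up to 0.0414% by a count of 3 cells, or 0.0509% by the Clopper-Pearson interval. These limits hold for thinned cells. Thinning lowered the share in each other library, so the limits cannot be set against the 0.0459% found without thinning. The order of the other 3 libraries was the same as without thinning except that 12-week-WT, at 0.854%, stood above 21-week-WT, at 0.824%. Just inside the limit on Xcr1 were 14, 9, 37 and 3 members with 1 UMI, and 75, 36, 101 and 1 had more. Just outside it were 7, 6, 55 and 2 cells with 0 UMIs of Xcr1 but at least 1 of Clec9a that met every other limit. Adding these 70 cells raised the share in 21-week-WT to 2.66%. The limit on Irf8 left out 9, 10, 14 and 4 cells, that on Cd3e 6, 8, 13 and 0, that on C1q 5, 4, 8 and 0, and that on H2-Aa 2, 0, 2 and 0. No other limit moved as many cells in 21-week-WT as the need for an Xcr1 UMI.

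Levels of the 3 genes that the rule required were as follows, as a description. Xcr1 was at 467.5, 347.7, 260.4 and 83.1 CPM in cDC1, with a median of 5, 4, 3 and 1 UMIs per cell. The 21-week-DB members were thus mostly cells with a lone Xcr1 transcript. Irf8 was at 2043, 1877, 1755 and 781.1 CPM, and H2-Aa, an MHC class II chain, at 12990, 13770, 14270 and 11200 CPM. Members held 85.0%, 72.8%, 82.6% and 8.48% of all Xcr1 UMIs in their library. The 53 kept cells of 21-week-DB with an Xcr1 UMI had a median of 0 UMIs of H2-Aa. In T cells (at least 2 UMIs of Cd3e), which should lack the receptor, 1.47%, 0.960%, 1.74% and 0.918% had an Xcr1 UMI at medians of 6355, 5504.5, 7182.5 and 5828 UMIs per cell.

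The name cDC1 was checked on genes that the rule did not use. Naaa, an acid amidase of lysosomes, was at 1657, 1490, 1187 and 747.8 CPM in cDC1 against 469.1, 472.2, 279.9 and 304.8 CPM in cDC2. Cst3, the protease inhibitor cystatin C, was at 11860, 13930, 12740 and 14130 CPM against 3623, 3966, 3585 and 4616 CPM. Both were higher in cDC1 than in cDC2 in every library, and the classes did not overlap. Clec9a (chr6:129408862-129424763, GRCm38) was at 125.9, 88.5, 86.1 and 16.6 CPM in cDC1 and at 1.74, 0.669, 2.49 and 0.361 CPM in cDC2. At least 1 UMI of Clec9a was found in 69.7%, 62.2%, 73.2% and 25% of cDC1, against 0.163%, 0.0800%, 0.0870% and 0.122% of T cells. With every cell thinned to 2000 UMIs, 22.5%, 18.2%, 13.1% and 0% of cDC1 still had one, and 0% of T cells. Over the 276 members, 98.9% held Naaa, 99.6% Cst3, 97.5% Wdfy4, 79.3% Cadm1, 77.5% Batf3, 72.1% Itgae, 69.6% Clec9a and 54.0% Tlr3. Of cDC2, 79.8% to 89.7% held Naaa and 99.8% to 100% held Cst3, so a UMI of either does not separate the classes. At least 5 of the 8 genes were present in 254 members (92.0%, interval 88.2 to 94.9). The same count was not made in cDC2, so it describes the members and has no background to be read against. The label rests on the levels, since in the 3 larger libraries each of these 8 genes stood above cDC2 in CPM.

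**Figure D2:**
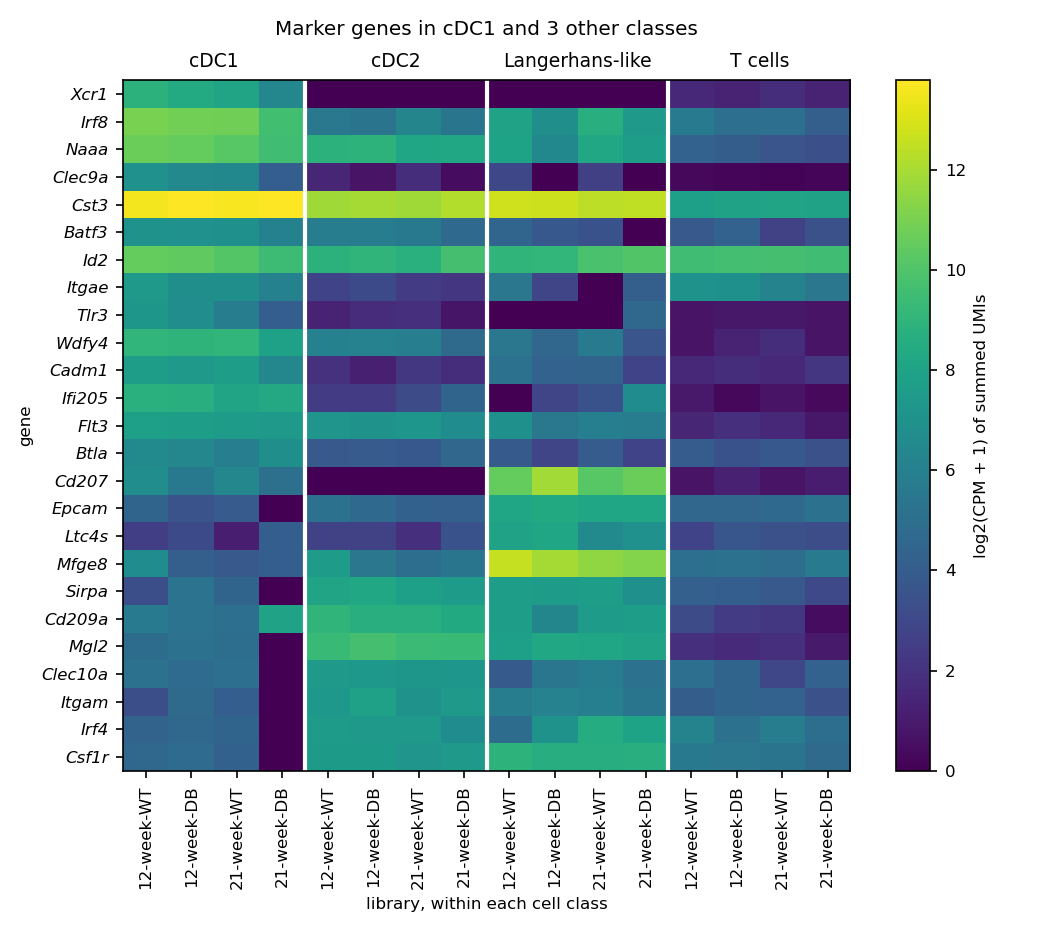
Marker genes (rows) in cDC1, cDC2, Langerhans-like cells and T cells of each library (columns), coloured by log2(CPM + 1) of summed UMIs. Clec9a, Cadm1, Tlr3 and Ifi205 are bright in cDC1 and dark in cDC2, and Sirpa and Irf4 show the opposite. The gates set Xcr1 to 0 in cDC2 and Langerhans-like cells and Cd207 to 0 in cDC2, and Cd209a and Mgl2 define cDC2.

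The 4 cells of 21-week-DB were less certain. They had 8978, 15071, 14444 and 21681 UMIs, with 1, 1, 2 and 1 UMIs of Xcr1 and 13, 16, 14 and 4 of Irf8. Naaa was present in the first 3 (7, 17 and 21 UMIs) and at 0 in the fourth, which held the only Clec9a UMI. All 4 held Wdfy4 (2, 3, 4 and 5 UMIs) and Cst3 (58, 360, 208 and 224 UMIs). The second also held 15 UMIs of the cDC2 lectin Cd209a. The fourth cell had 119 UMIs of Il1b, the least Irf8 and no Naaa, but also the most Wdfy4 of the 4. Since the label was less certain for these 4 cells, counts of genes below are also given without 21-week-DB where that moves them by more than 1.5 times.

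**Figure D3:**
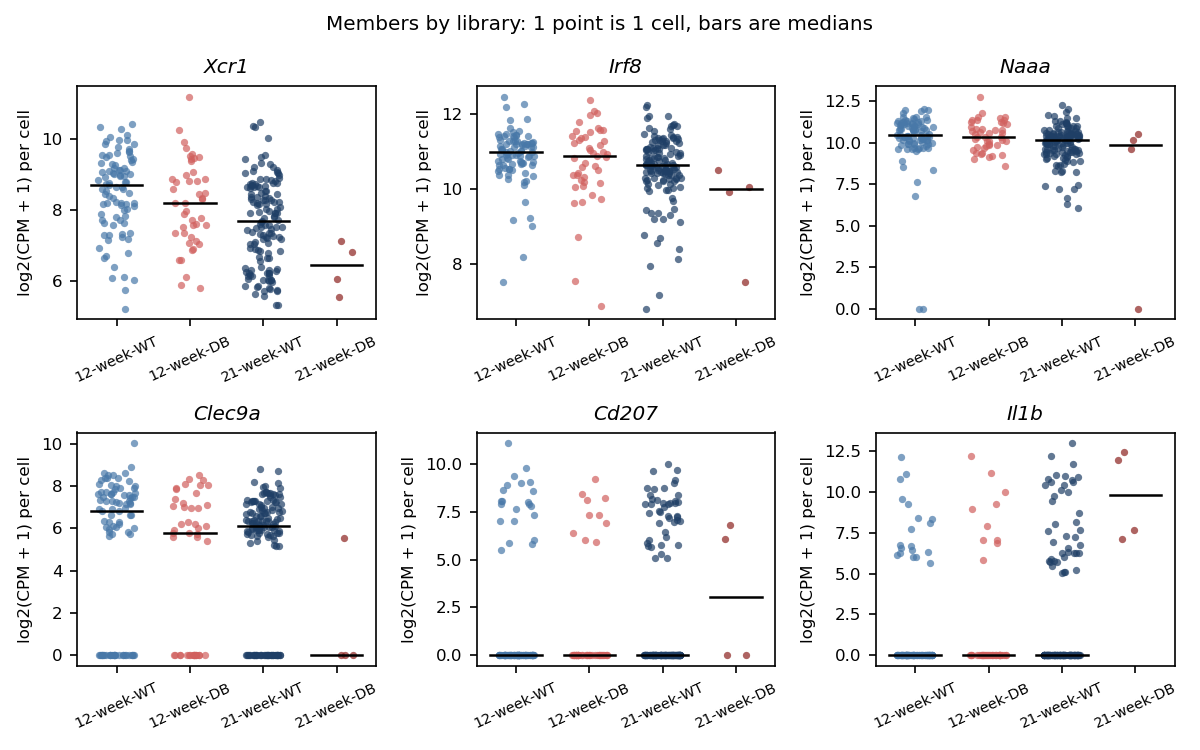
Each point is 1 cDC1, grouped by library, with its log2(CPM + 1) for Xcr1, Irf8, Naaa, Clec9a, Cd207 and Il1b, and bars at the median. The 4 cells of 21-week-DB lie low for Xcr1 and Irf8 and all hold Il1b, whereas in the other libraries most cells have 0 UMIs of Cd207 and of Il1b.

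Genes that separate cDC1 from cDC2 were tested with edgeR on UMIs summed per class and library, with the library as a block and Benjamini-Hochberg adjustment over 7908 genes. The 10 genes of the gates were left out. At an adjusted p under 0.05, 703 genes (8.89% of those tested) were higher in cDC1 and 824 (10.4%) were lower. Without the 21-week-WT library 336 were higher and 416 lower, and without the 12-week-WT library 368 and 495. Members of the cDC1 identity list stood far from this background, with 19 of 20 tested genes higher, 1 lower and a median log2 fold change of 2.77 against -0.01 over all genes. Without the 21-week-DB library the list gave 19 higher and 1 lower, without the 12-week-WT library 18 higher and 0 lower, and after thinning 13 higher and 1 lower of 14. This list holds known cDC1 genes, so the count describes the label and is not independent support for it.

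Among genes higher in cDC1 with a mean of at least 50 CPM, the largest difference was in Cadm1 (chr9:47530173-47857637), an adhesion molecule that binds CRTAM on activated T cells. It was at 205.8, 172.3, 201.4 and 83.1 CPM in cDC1 against 2.87, 1.34, 3.66 and 2.53 CPM in cDC2, without overlap. Its log2 fold change was 6.18 (SE 0.24, adjusted p = 9.361e-12 by edgeR). Clec9a followed with 5.91 (SE 0.27, adjusted p = 6.754e-11). Ifi205, a member of the interferon-inducible p200 family, was at 435.4, 392.0, 264.1 and 315.8 CPM against 4.24, 4.52, 8.32 and 20.9 CPM, a log2 fold change of 5.73 (SE 0.40, adjusted p = 6.859e-09). Tlr3, the endosomal sensor of double-stranded RNA, was at 156.4, 108.3, 53.5 and 16.6 CPM against 1.50, 2.34, 2.57 and 0.721 CPM. Within WT its level in cDC1 was lower at 21 than at 12 weeks, and its log2 fold change over cDC2 was 5.57 (SE 0.38, adjusted p = 6.64e-09). Itgae, the CD103 integrin chain, was at 174.5, 115.9, 116.2 and 66.5 CPM against 5.86, 7.70, 4.51 and 3.61 CPM (log2 fold change 4.65, SE 0.26, adjusted p = 7.598e-10). Wdfy4, needed for cross-presentation of cell-bound antigen, was at 531.7, 506.4, 539.9 and 232.7 CPM against 66.03, 66.9, 59.7 and 26.0 CPM (3.17, SE 0.17, adjusted p = 3.821e-10). For each of these genes the lowest cDC1 level lay above the highest cDC2 level.

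Among transcription factors and receptors of the lineage, Batf3 (130.9, 123.5, 118.7 and 66.5 CPM against 56.4, 54.5, 46.9 and 24.9 CPM) had a log2 fold change of 1.40. Flt3, the receptor for FLT3L, was at 218.1, 208.9, 198.9 and 166.2 CPM against 142.3, 131.9, 152.8 and 102.4 CPM (0.70), a difference far smaller than that of the lineage markers. Kit, the receptor for stem cell factor, was at 95.5, 128.1, 104.1 and 83.1 CPM against 6.23, 7.03, 7.31 and 15.5 CPM (3.98, SE 0.26, adjusted p = 2.893e-09). Kit is also a mast cell gene, and values of other mast cell genes are given below. The germinal centre gene Gcsam was at 42.8, 41.2, 28.4 and 83.1 CPM in cDC1 and at 0, 0, 0.156 and 1.08 CPM in cDC2. The gene of the list that was lower was Itgax, the CD11c chain carried by both subsets (-1.02), which did not pass without 12-week-WT.

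On the other side, 12 of 13 tested genes of the cDC2 identity list were lower in cDC1 and 0 higher (median -2.90). As with the cDC1 list, these are known genes of the class, so the count describes the labels and is not independent support. Sirpa, an inhibitory receptor, was at 9.05, 36.6, 20.5 and 0 CPM in cDC1 against 266.4, 296.9, 217.7 and 194.8 CPM (-3.57). Irf4 was at 19.8, 24.4, 20.9 and 0 CPM against 186.6, 171.0, 171.1 and 104.2 CPM (-2.90). The C-type lectin Cd209d (-5.47), the macrophage elastase Mmp12 (-4.83), the mannose receptor Mrc1 (-4.53), the ion channel gene Tmem176a (-4.57) and the chemokine receptor Cx3cr1 (-3.83) were among the largest differences. The lipoxygenase Alox15 was at 0, 0, 1.67 and 0 CPM in cDC1 against 289.8, 138.9, 81.3 and 52.7 CPM in cDC2, a log2 fold change of -7.12 (SE 0.84, adjusted p = 4.899e-06). Dbn1 (4.55), the orphan receptor Gpr141b (4.51), Fam149a (4.29), the DNase Dnase1l3 (4.28) and Gm36723 (4.18) were the genes outside the identity list with the largest positive differences.

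**Figure D4:**
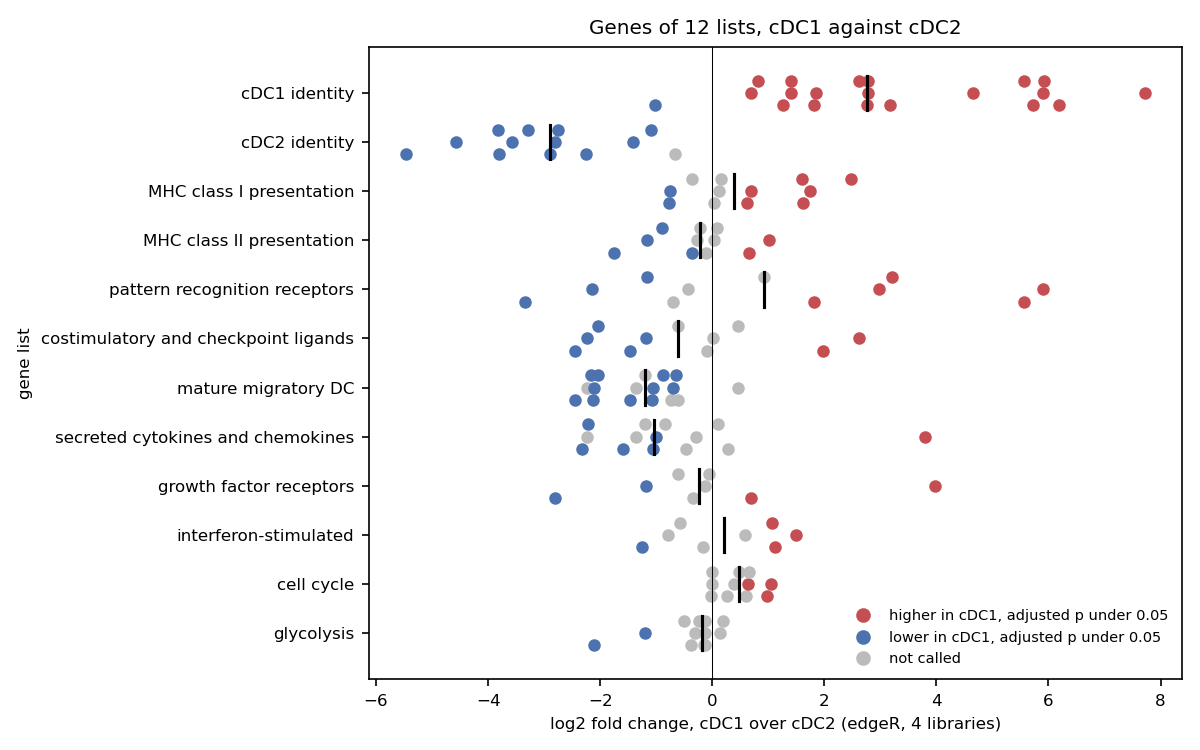
Log2 fold change of cDC1 over cDC2 (edgeR, 4 libraries) for the tested genes of 12 lists, 1 point per gene, with the median of each list as a bar. Red points are higher and blue points lower in cDC1 at an adjusted p under 0.05; the cDC1 identity list is red except for Itgax, and the lists of secreted proteins and of maturation are mostly blue or grey.

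Promoter sequence was available for part of these genes in RefSeq (GRCm38.p6), as windows of 250 bases before and 50 bases after the start site. Of the tested genes, 6348 had 8146 windows. Windows were searched on both strands for GAAA, any 2 bases and GAAA again, the core of the interferon-stimulated response element, for GGAA, any 2 bases and GAAA, an ETS-IRF composite element, and for TGANTCA, an AP-1 site, which IRF8 and BATF3 partners are known to use; the first and second differ at 1 letter, so they cannot match the same bases on the same strand. The response element core was in 3.44% of all 32851 promoter windows, in 3.19% of those of tested genes, in 5.15% (37 of 719) of those of genes higher in cDC1 and in 3.96% (34 of 858) of those of genes lower in cDC1. The composite element was in 2.72%, 2.52%, 3.34% and 2.8%, and the AP-1 site in 7.81%, 4.96%, 5.84% and 7.11%. These shares are descriptions with no test. The promoters of Xcr1, the gene that names the population, and of Ifi205 are shown because they stand for a gene without and a gene with such a match. The sequences are upstream of the start, 5′ to 3′ on the minus strand, with the response element core in capitals. The Ifi205 match begins at base 117 of the run, and the Xcr1 run, at chr9:123862030-123862279, holds none of the 3 motifs. The Ifi205 run is chr1:174031811-174032005.
Xcr1: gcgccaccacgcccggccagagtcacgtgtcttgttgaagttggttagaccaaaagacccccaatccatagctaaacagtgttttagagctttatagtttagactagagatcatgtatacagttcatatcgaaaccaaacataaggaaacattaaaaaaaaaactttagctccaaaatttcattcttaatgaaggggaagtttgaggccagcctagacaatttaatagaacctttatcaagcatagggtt
Ifi205: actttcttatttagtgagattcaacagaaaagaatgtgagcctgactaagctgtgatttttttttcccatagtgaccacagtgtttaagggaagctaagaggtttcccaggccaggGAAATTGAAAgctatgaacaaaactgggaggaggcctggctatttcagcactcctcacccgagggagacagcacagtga
A match is a string of letters and not a measured binding site.

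Genes of antigen presentation were next. For MHC class I presentation, 6 of 12 tested genes were higher in cDC1, 2 were lower, and the median was 0.39. The 6 were the peptide transporter and its partner (Tap1, Tap2, Tapbp) and the inducible proteasome subunits (Psmb8, Psmb9, Psmb10). Psmb9 was at 363.8, 312.7, 327.2 and 398.8 CPM in cDC1 against 77.9, 59.9, 76.2 and 42.9 CPM in cDC2 (log2 fold change 2.48, SE 0.19, adjusted p = 1.938e-08). Tap1 was at 155.6, 114.4, 158.8 and 83.1 CPM against 60.8, 43.7, 55.3 and 20.6 CPM (1.62, SE 0.15, adjusted p = 3.35e-07). The classes did not overlap for either gene. The 2 lower genes were parts of the class I molecule itself. B2m, its light chain, was at 819.0, 530.8, 688.3 and 398.8 CPM against 1498, 957.9, 1189 and 803.2 CPM (-0.77, SE 0.17, adjusted p = 0.00315), and the heavy chain H2-D1 was also lower (-0.75). H2-K1 (-0.36) did not pass the threshold. Psmb10 did not pass without either WT library, nor Tapbp without 21-week-WT.

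For MHC class II presentation, 2 of 11 tested genes were higher, 4 were lower, and the median was -0.22. The chaperone gene H2-Ob (1.005) and the class II transactivator Ciita (0.65) were higher, and the protease Ctss (-1.17) and the invariant chain Cd74 (-0.36) were among the lower. H2-Ob was at 48.6, 57.96, 43.05 and 0 CPM in cDC1 against 24.9, 27.95, 25.7 and 16.6 CPM, so it was higher in the first 3 libraries, and the 0 UMIs in 21-week-DB, which allow up to 49.9 CPM, give no direction there. Without either WT library 1 was higher and 3 lower. Ciita did not pass without either WT library, and Cd74 did not pass without 12-week-DB or either WT library. The chains H2-Ab1 (7511, 7943, 8695 and 6747 CPM against 8228, 7788, 9199 and 6909 CPM) and H2-Eb1 did not pass the threshold. Of the pattern recognition receptors, 5 of 11 tested were higher (Clec9a, Tlr3, Ly75, Tlr11 and Clec12a) and 3 lower (Tlr2, Axl and Nlrp3). Ly75 encodes DEC-205, an uptake receptor, and was at 42.8, 41.2, 30.9 and 66.5 CPM against 5.48, 2.51, 3.34 and 13.0 CPM (3.22). Tlr11, a sensor of profilin, was at 78.2, 61.0, 53.9 and 33.2 CPM against 14.1, 8.37, 6.30 and 2.53 CPM (2.98).

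Lists of maturation and secretion came next. Of the mature migratory list, 11 of 17 tested genes were lower and 0 higher (median -1.21), but without the 21-week-WT library 3 of 16 were lower, and without the 12-week-WT library 7 of 14. Ccr7, the receptor that guides dendritic cells to lymph nodes, was at 12.3, 32.0, 11.7 and 0 CPM against 48.5, 35.5, 132.4 and 165.2 CPM (-2.13), and only 10 of the 276 members held a UMI of it (3.62%). Ccr7 did not pass without 21-week-WT (-1.32). Fscn1, an actin bundler of mature dendritic cells, had a UMI in 0 of 276 members, which allows a share of up to 1.09% of cells with a UMI and sets no limit on cells that express it below detection. Of the secreted cytokines and chemokines, 5 of 14 were lower and 1, Cxcl9, higher. Cxcl9, an interferon-induced chemokine for T cells, was at 18.9, 1.53, 22.6 and 16.6 CPM (3.79, SE 0.64, adjusted p = 0.0004226), carried by 4, 1, 3 and 1 cells only. Without the 21-week-DB library, 0 genes of the list were higher and 4 of 13 lower, and 10 of 17 were lower without the 12-week-DB library and 3 of 14 without the 21-week-WT library.

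The remaining lists gave smaller counts, to be read against the 8.89% higher and 10.4% lower of all tested genes, and counts of 1 or 2 genes in a list lie near that background. Costimulatory and checkpoint ligands had 2 of 11 higher, the inhibitory receptors Btla (2.62) and Havcr2 (1.97), and 5 lower. Growth factor receptors had 2 of 8 higher (Kit and Flt3) and 2 lower, among them Csf1r, the M-CSF receptor (-2.80). Interferon-stimulated genes had 3 of 8 higher, Ly6e and Stat2 among them, and 1 lower. Cell cycle genes had 3 of 11 higher, which were Pclaf, Hmgb2 and Top2a, and 0 lower, and 30 members (10.9%) held both Mki67 and Top2a. Glucocorticoid and metallothionein genes had 1 of 9 higher, the kinase Sgk1, and 5 lower. Sgk1 was at 98.8, 91.5, 133.7 and 16.6 CPM against 53.7, 38.7, 52.4 and 60.2 CPM, higher in the first 3 libraries, and the 1 UMI in 21-week-DB gives no direction there. Early response and heat shock genes had 0 of 15 higher and 3 lower, and glycolysis genes 0 of 12 higher and 2 lower, one of them the glucose transporter Slc2a1 (-2.11). Macrophage genes had 0 of 8 higher and 5 lower, and monocyte genes 0 of 5 higher and 3 lower. Several of these counts moved with 1 library. Without 21-week-WT the lower genes were 1 of 10 costimulatory and checkpoint ligands, 1 of 8 growth factor receptors, 3 of 9 glucocorticoid and metallothionein genes, 1 of 15 early response and heat shock genes and 0 of 4 monocyte genes, and 1 of 10 cell cycle genes and 0 of the glucocorticoid list were higher. Without 12-week-WT the lower genes of these lists were 3 of 10, 1 of 8, 2 of 9, 1 of 15 and 1 of 5, with 0 of the glucocorticoid list higher and 0 of 7 interferon-stimulated genes lower. Without 12-week-DB, 3 of 10 interferon-stimulated and 5 of 15 early response genes were lower and 2 of 11 cell cycle genes were higher. Top2a did not pass without 12-week-DB, and neither Top2a nor Pclaf without 21-week-WT.

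A second contrast of the same fit set cDC1 against Langerhans-like cells, and it shares the cDC1 sums with the first. The Langerhans-like class was small and its sums were shallow, at 141433, 312679, 198071 and 173984 UMIs, or 141433, 271203, 144948 and 100144 without likely doublets. It held its markers Epcam (289.9, 332.6, 287.8 and 270.1 CPM), Mfge8 and Ltc4s beside the Cd207 that defined it. In this contrast 719 genes (9.09%) were higher and 1011 (12.8%) lower in cDC1, with 396 higher without 21-week-WT, 459 without 12-week-WT and 477 without 12-week-DB. Of the cDC1 identity list 17 of 20 were higher and 1, Itgax (-1.19), lower, with a median of 2.89 against 0.03 over all genes. Of the Langerhans cell list 0 of 7 were higher and 7 lower (median -4.29). Both lists hold known genes of the classes, so these counts also describe the labels. Tlr11 (4.48), the activating receptor Klrk1 (4.62), Gpr141b (4.24), Wdfy4 (3.92) and the peptidase Dpp4 (3.60) were among the largest positive differences. Mfge8, a bridge to dying cells, was at 102.1, 16.8, 13.4 and 16.6 CPM in cDC1 against 6088, 3886, 2873 and 2380 CPM (-7.02). The growth factor Pgf (-9.86), the cyclooxygenase Ptgs1 (-9.79), Fam189a2 (-8.77), Hapln3 (-8.18) and Alox15 (-7.25) were also lower. H2-M2 was at 0 CPM in cDC1 of all libraries against 99.0, 489.3, 55.5 and 132.2 CPM in Langerhans-like cells, Atp8b1 at 0 against 91.9, 182.3, 65.6 and 69.0 CPM, and Scn3a at 0 against 84.9, 191.9, 40.4 and 17.2 CPM. The histone gene Hist1h1b was at 42.8, 74.7, 83.2 and 16.6 CPM in cDC1 and at 0 in Langerhans-like cells, and cell cycle genes had 5 of 11 higher and 0 lower (8 of 10 higher without 12-week-WT and 3 of 10 without 21-week-WT). Class I presentation genes again had 6 of 12 higher and 2 lower (1 lower without 12-week-DB, 21-week-WT or 21-week-DB), with Tap1 at 2.16 and Psmb9 at 2.00.

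Langerin divided the members. A UMI of Cd207 was present in 24.7%, 22.2%, 31.2% and 50% of cDC1, in all in 77 of 276 (27.9%), against 0.490%, 0.880%, 0.435% and 0.734% of T cells, whose depth is given above. Of the 77 cells, 68 also held Itgae. Its share among all members is given above, and it did not pass in the test below (log2 fold change 0.69). In the 3 libraries with enough cells, Cd207+ members had medians of 15562, 14562.5 and 18399 UMIs and Cd207- members of 12683, 13775 and 16067, so the Cd207+ cells were also the deeper ones. With Cd207 and the gate genes left out, edgeR called 26 of 6086 genes (0.427%) higher and 10 (0.164%) lower in Cd207+ cells. These counts were unstable, at 2 and 1 without 12-week-WT, 52 and 31 without 12-week-DB, 57 and 35 without 21-week-WT and 1 and 1 after thinning to 2000 UMIs. The DNase Dnase1l3 was at 250.1, 217.7 and 183.7 CPM in Cd207+ against 34.6, 43.6 and 44.3 CPM in Cd207- cells, without overlap (log2 fold change 2.42, SE 0.21, adjusted p = 0.0001548). Nppc, the precursor of C-type natriuretic peptide, was at 169.6, 39.6 and 204.7 CPM against 39.2, 19.8 and 29.7 CPM (2.36, SE 0.27, adjusted p = 0.001593), so that its 12-week-DB value in Cd207+ cells only just passed the highest Cd207- value. Stfa2l1 (2.46), Tcea3 (2.23), Tnfaip2 (2.13), the ubiquitin ligase Nedd4 (1.92) and the collagen-binding integrin Itga1 (1.65) were also higher. The class II genes H2-Eb1 (0.35, adjusted p = 0.005152) and Cd74 (0.24, adjusted p = 0.01602) were higher by less. Without 12-week-WT, Stfa2l1 and Dnase1l3 were the higher genes of those named here that still passed, and without 21-week-WT Stfa2l1 and Itga1 did not pass.

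The genes lower in Cd207+ cells were fewer. Hmgb2, a chromatin protein of dividing cells, was at 224.2, 158.3 and 431.6 CPM against 752.0, 531.7 and 618.9 CPM (-1.17, SE 0.20, adjusted p = 0.02068). Tubb5 (-0.87) and Tuba1b (-0.83), both tubulins, the cyclin Ccnd2 (-1.82), the GTPase Rac2 (-1.63), the chemokine Ccl4 (-1.36) and Fxyd2 (-1.92) were also lower. Of the cell cycle list 2 of 10 tested genes were lower and 0 higher, with a median of -1.17. This was 5 of 11 lower without 12-week-DB, 0 of 10 without 12-week-WT and 6 of 8 without 21-week-WT. A UMI of Mki67 was in 2 of 22, 3 of 10 and 13 of 43 Cd207+ cells. In Cd207- cells it was in 11 of 67, 8 of 35 and 28 of 95, so the share was lower in Cd207+ cells in 12-week-WT only. Whether fewer Cd207+ cells were dividing was not tested. Without 12-week-WT none of the lower genes named here passed the threshold. Fxyd2 and Tuba1b also did not pass without 12-week-DB, nor Ccnd2 without 21-week-WT. Genes that mark Langerhans cells did not pass the threshold, with Mfge8 at 3.18 (adjusted p = 0.05671), Epcam at 1.83 (adjusted p = 0.1744) and Cdh1 at 2.93 (adjusted p = 0.06408), but 3 of 6 of the list were higher without 12-week-DB and 3 of 5 without 21-week-WT. Of the cDC1 identity list 0 of 20 passed in either direction, with 1 higher without 12-week-DB and 1 lower without 21-week-WT.

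Between the 12-week libraries, 1375 genes reached 100 CPM in either library and 50 UMIs in the sum of both. Of these, 16 (1.16%) were at least 2-fold higher in 12-week-DB and 14 (1.02%) at least 2-fold lower, with a median log2 ratio of 0.02. Without the richest cell of each library for each gene, 10 were higher and 19 lower. Scaling by TMM, the trimmed mean of edgeR, in place of total UMIs took 0.03 off each log2 ratio and gave 16 and 16. The transcriptomes of cDC1 in the 2 libraries were thus close in most genes. The largest ratio was that of Fxyd2 (chr9:45399669-45410278), a regulatory subunit of the sodium pump, at 14.8 CPM in WT and 434.7 CPM in DB. This log2 ratio of 4.88 (interval 4.19 to 5.65) remained 4.44 without the richest cell of each library, and 15 of 89 and 22 of 45 cells held a UMI. The same direction was seen in cDC2 (126.2 and 479.6 CPM), T cells (31.8 and 198.2 CPM) and NK cells (35.7 and 413.1 CPM), so it was not particular to cDC1.

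The transcription factor gene Zeb2 was at 38.7 and 170.8 CPM in cDC1 (log2 ratio 2.14) but at 645.9 and 651.6 CPM in cDC2. Fibronectin (Fn1) was at 18.1 and 126.6 CPM (2.81), the NF-κB inhibitor Tnip3 at 45.3 and 141.8 CPM (1.65), the chemokine receptor Cxcr4 at 51.9 and 140.3 CPM (1.44), and the lysozyme Lyz1 at 69.1 and 207.4 CPM (1.59, but 0.74 without the richest cell). Cxcr4 was at 1.11 without the richest cell. Lyz1 (259.8 and 898.5 CPM), Fn1 (525.8 and 728.6 CPM) and Cxcr4 (150.4 and 228.9 CPM) were also higher in cDC2 of the DB library. Tnip3 was lower there (389 and 342.5 CPM). Some ratios rested on 1 cell. The mast cell proteases Mcpt2 (4.39) and Cma1 (4.02) and the chemokine Ccl17 (1.79) were -1.64, -0.53 and -0.05 without the richest cell. Lower in 12-week-DB were the mitochondrial gene mt-Nd3 (432.9 and 178.4 CPM, -1.28), which was also lower in cDC2 and T cells, the interferon-inducible genes Mndal (153.9 and 58.0 CPM, -1.41) and Trim30a (135.8 and 56.4 CPM, -1.27), the zinc transporter Slc30a5 (-1.74, and -1.08 without the richest cell) and the actin regulator Evl (-1.18). The calprotectin genes S100a8 (-4.79) and S100a9 (-5.98), of neutrophils, and Mfge8 (-2.61) came mostly from 1 cell of 12-week-WT. With likely doublets removed, the ratios of S100a8, S100a9 and Mfge8 were -0.16, -1.04 and 0.60.

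**Figure D5:**
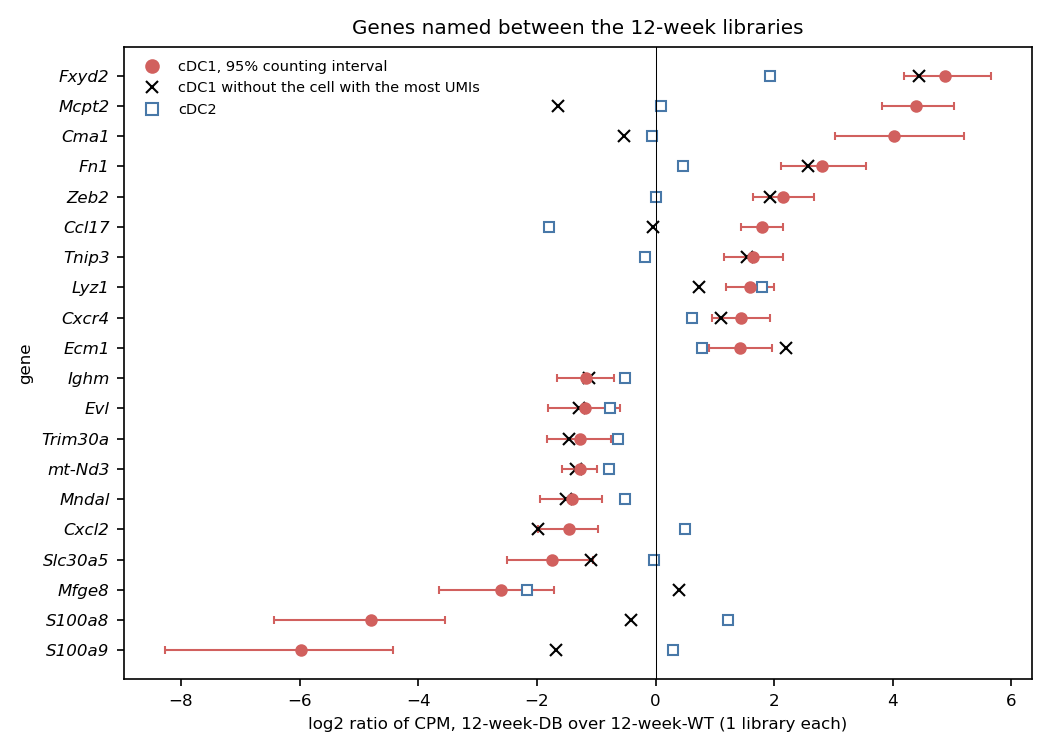
Log2 ratio of CPM in 12-week-DB over 12-week-WT for the 20 genes with the largest ratios in cDC1 (circles with 95% counting intervals), the same without the richest cell of each library (crosses) and in cDC2 (open squares). Fxyd2 keeps its ratio without the richest cell and is also positive in cDC2, whereas Mcpt2, Cma1, Ccl17 and Mfge8 cross 0.

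Over all 1375 genes the counting interval lay wholly above 0 in 16.7% and wholly below 0 in 13.9%. Read by list, 7 of 16 compared cDC1 identity genes had an interval wholly below 0 in 12-week-DB and 1 wholly above it, with a median log2 ratio of -0.17. Cd207, at 105.4 and 47.3 CPM, was the member lower by 2-fold (-1.16). Tlr3 (-0.53), Clec9a (-0.51) and Itgae (-0.59) were lower, and Batf3 (-0.08), Wdfy4 (-0.07) and Flt3 (-0.06) differed by less than their counting error. Of the class I presentation genes 5 of 10 had an interval below 0 (median -0.33) and 0 above it. Early response and heat shock genes, which include those induced by tissue digestion, had 12 of 15 below 0 and 0 above (median -0.58), none by 2-fold. Their summed level in cDC1 was 10700, 7877, 11780 and 10800 CPM, with Hspa1b the most abundant, and its part in the other differences between these libraries was not tested. Class II presentation genes had 3 of 9 above 0 and 1 below (median 0.06).

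Between the 21-week libraries the 4 cells of 21-week-DB set the precision. Of 1454 genes compared, 221 (15.2%) were at least 2-fold higher and 137 (9.42%) at least 2-fold lower in 21-week-DB, but the counting interval cleared 0 for only 180 and 81 of them. The split depends on the scaling, since TMM took 0.43 off each log2 ratio and gave 116 higher and 268 lower. Without the richest cell there were 88 and 296. A gene could reach 100 CPM through few UMIs of 21-week-DB, as Jdp2 did with 9 in 3 cells and Ccnd2 with 17 in 1 cell. The number of higher genes is thus partly set by the choice of genes. The counting interval also takes the UMIs of 1 cell as independent. The genes with the largest ratios that were found in all 4 cells were Il1b (293.4 and 2659 CPM, log2 ratio 3.18), the interferon-induced Ifitm2 (146.7 and 1080 CPM, 2.88) and Csf2rb (88.2 and 681.4 CPM, 2.95), the shared receptor chain for GM-CSF and related cytokines. Without the richest cell these ratios were 2.19, 2.33 and 2.36. With at least 2 Xcr1 UMIs, which leaves 1 cell in 21-week-DB, Il1b was at -0.74 and Csf2rb at -0.41. Ctla2a had a ratio of 6.41 in 2 cells, which was 2.42 without the richest. Genes lower in 21-week-DB, such as the integrin chain Itga4 (230.7 and 16.6 CPM) and the cyclin Ccnd1 (145.0 and 16.6 CPM), were at 1 UMI there, below the level that 0 UMIs would allow. Of the lists, cDC1 identity had 3 of 14 compared genes lower by 2-fold (median -0.67 against 0.16 over all compared genes), class II presentation 2 of 9 (median -0.46) and class I presentation 2 of 11 (median -0.50), each with 0 higher by 2-fold. The cell cycle list had 3 of 3 lower, of which Stmn1 was at 1 UMI and Hmgb2 (-1.16) and Tubb5 (-1.04) at 15 UMIs each in 21-week-DB.

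With age, few genes of WT cells differed by 2-fold. Of 1309 genes compared, 1 (0.0764%) was at least 2-fold higher and 14 (1.07%) at least 2-fold lower in 21-week-WT, or 7 and 9 by TMM, which added 0.20 to each log2 ratio. Gm10260 was the higher gene by total UMIs (183.5 and 417.5 CPM, log2 ratio 1.19), and it was also higher in cDC2 (128.7 and 304.4 CPM) and T cells (131.7 and 286.5 CPM). Headers of the matrices give Cell Ranger 5.0.0 at 12 weeks and 6.0.0 at 21 weeks, and software and age cannot be told apart here. Ccr2, the receptor for CCL2, was at 319.4 and 106.2 CPM in cDC1 (-1.59) and at 568.1 and 326.8 CPM in cDC2. Other lower genes rested mostly on 1 cell. S100a8 (-6.39), S100a9 (-5.84) and Mfge8 (-2.93) were at -1.985, -1.10 and 0.015 without the richest cell of each library. The class II presentation genes had 7 of 9 intervals above 0 and 1 below, with a median of 0.21 and none past 2-fold, where 17.1% of all compared genes had an interval above 0 and 28.3% below. The cDC1 identity genes had 2 of 16 above and 9 below, with a median of -0.26 against -0.06 over all compared genes. Tlr3 (-1.55), Ifi205 (-0.72), Itgae (-0.59) and Clec9a (-0.55) were among the lower, and by TMM, which adds to each ratio as given above, the differences are smaller. In DB, 84 of 1429 genes (5.88%) were at least 2-fold higher and 199 (13.9%) at least 2-fold lower at 21 weeks. There were 46 and 296 by TMM, which took off 0.28, and 31 and 364 without the richest cell. Here too a gene could enter through few UMIs of 21-week-DB. The transcription factor Runx3 (65.6 and 465.3 CPM), in all 4 cells, was among the higher. Its log2 ratio was 2.83, or 0.96 with at least 2 Xcr1 UMIs, which leaves 1 cell in 21-week-DB. The contrasts share libraries, so they are not independent of each other.

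Il1b, the precursor of interleukin-1β (chr2:129364570-129371139), was at 165.4, 405.7, 293.4 and 2659 CPM in cDC1. It was at 332.1, 617.5, 1541 and 3944 CPM in cDC2 and at 289.9, 1743, 2120 and 6886 CPM in Langerhans-like cells. In each class and at each age the DB library was higher than the WT library (in cDC1 at 21 weeks the log2 ratio was -0.74 with at least 2 Xcr1 UMIs, which leaves 1 DB cell), and cDC1 had the lowest level of the 3 classes in every library. Within libraries it was lower in cDC1 than in cDC2 (log2 fold change -1.06, SE 0.27, adjusted p = 0.007155 by edgeR, not passed without 21-week-WT, at -0.67) and than in Langerhans-like cells (-1.85, adjusted p = 7.159e-05). In cDC1 the transcript was in 19 of 89, 10 of 45, 42 of 138 and 4 of 4 cells, or 21.3%, 22.2%, 30.4% and 100%, against 5.72%, 6.32%, 12.3% and 6.67% of T cells. The richest cell held 44.3%, 68.4%, 20.8% and 74.4% of the UMIs. The 12-week libraries thus had close shares of cDC1 with the transcript, and most of the higher level in 12-week-DB came from 1 cell.

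The ligands of the lineage were found in other cells of the same libraries. Xcl1 was at 1006, 1116, 462.1 and 1114 CPM in NK cells (at least 1 UMI of Ncr1), where 57 of 73, 46 of 71, 33 of 92 and 43 of 71 cells held it, and at 62.4, 87.5, 22.9 and 20.8 CPM in T cells. The cDC1 held 2, 0, 1 and 0 UMIs. Cells with no UMI of Ncr1 or Cd3e and fewer than 5 of H2-Aa, which were not typed, held 38.6%, 21.4%, 39.3% and 37.5% of all Xcl1 UMIs, against 36.0%, 26.9%, 25.2% and 37.6% in NK cells, and 36.5%, 40%, 27.6% and 49.5% of Flt3l UMIs. Flt3l, the growth factor, was at 72.01, 71.97, 63.5 and 34.5 CPM in T cells, at 55.6, 56.2, 45.1 and 27.3 CPM in NK cells and at 24.8, 31.8, 24.0 and 21.3 CPM over all kept cells. Xcl1 in NK cells was lowest in 21-week-WT, and Flt3l in both cell types was lowest in 21-week-DB.

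Markers of other cell types were present in cDC1 at differing levels. The largest sum was that of 15 cDC2 identity genes, at 1882, 3259, 1683 and 2975 CPM, higher in each DB library than in the WT library of its age. S100a4 made up 1025, 2338, 1018 and 2293 CPM of it, and was at 3967, 5434, 3855 and 4408 CPM in cDC2. The part of cDC2 transcripts in the higher Fn1, Zeb2, Tnip3 and Lyz1 of 12-week-DB was not tested. The summed level of 6 T cell genes, of which the rule set Cd3e to 0, was 13.2, 7.63, 17.1 and 166.2 CPM. The last was mostly Cd3g in 1 cell. For 5 mast cell genes it was 109.5, 482.0, 108.7 and 83.1 CPM and for 4 neutrophil genes 529.2, 15.3, 8.78 and 0 CPM. Kit was the most abundant of the mast cell genes and made up 95.5, 128.1, 104.1 and 83.1 CPM of their sum, and S100a8 and S100a9 of the neutrophil list came mostly from 1 cell of 12-week-WT. For 6 B cell genes it was 219.8, 80.8, 66.5 and 16.6 CPM, with Ighm the most abundant. For 12 macrophage genes it was 1428, 1746, 1370 and 1296 CPM, with Lyz2 the most abundant. The rule limited C1qa, C1qb and C1qc of the macrophage list, so that sum is partly set by the choice. Monocyte genes (183.5, 111.3, 291.7 and 581.6 CPM) were highest in 21-week-DB. Ifitm3 made up 515.2 CPM of the sum there, and 38.1 CPM in 12-week-DB. NK cell, plasmacytoid dendritic cell, stromal cell, keratinocyte and erythroid genes summed to at most 36.2 CPM each in any library. A UMI of Cd209a or Mgl2, the genes that defined cDC2, was found in 77 members. Removal of likely doublets moved the S100a8 and S100a9 ratios between the 12-week libraries, as given above. The part of free RNA, or of doublets that the scoring missed, in these values was not tested.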

How the data were processed

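The 10x Genomics 3′ v3 libraries were aligned to mm10 by the authors with Cell Ranger (5.0.0 in the submitters' processing notes, with 5.0.0 and 6.0.0 in the file headers for the 12-week and 21-week libraries). The deposited values were UMI counts per gene and barcode for 32285 genes, in filtered matrices. Members and gene lists were chosen with earlier results of these data known. Counts were summed per cell class and library and tested with edgeR 4.0.16 in R 4.3.3 (quasi-likelihood, TMM, filterByExpr, threshold of 0.05), with DESeq2 1.42.0 as an alternative. Cells were handled with scanpy 1.11.5 and Python 3.11.15, and exact intervals with scipy 1.17.1. In the split by Cd207 a sum needed at least 5 cells, and the 21-week-DB cDC1 sum of 4 cells entered the other tests. Doublets were scored with Scrublet at an expected 0.8% per 1000 cells and kept. Genes named were those of the lists and, per test, the 10 with the largest rise and fall among called genes with at least 50 mean CPM in the higher class and 1 direction in every library. Between libraries they were the 10 (5 between ages) with the largest ratios of at least 2. Scripts were tested on simulated data.

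Alternatives were stricter limits on mitochondrial share, genes, Xcr1 and C1q, a looser one on Irf8, removal of likely doublets, thinning, RLE factors, no filter on low counts, no library block, only the classes compared, and leaving out each library. Members with Xcr1 or Clec9a, antigen-presenting cells after thinning as a denominator, and ratios without the richest cell were added after the data were seen. The study clustered its cells, and no annotation of single cells was used here.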

Additional observations from a re-analysis of the deposited data

Results flagged for a closer look

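By Dixon's test on the difference in log2(CPM + 1) between classes, where chance flags about 1 in 20 sets of 4, 1 library stood apart from the other 3 in 26 of 195 genes examined against cDC2 (13.3%) and in 13 of 201 against Langerhans-like cells (6.47%). The library was 21-week-DB in 23 and 10 of these. The 11 results whose genes are named by the rule or have values above in the same comparison follow. In 21-week-DB, Irf4, Csf1r, H2-Ob and Fam189a2 had 0 UMIs in cDC1, where 0 allows up to 49.9 CPM, and Fam149a, Sgk1 and Ltc4s had 1, so their differences there rest on 0 or 1 UMIs and cannot be read as a departure from the other libraries. For Fam149a the excess of cDC1 over cDC2 was 3.95, 4.14, 3.84 and 2.05, with 21-week-DB the lowest (gap over range 0.856). It was -3.18, -2.76, -2.97 and -6.72 for Irf4 (0.895), -2.88, -2.67, -2.91 and -7.43 for Csf1r (0.95), -0.47, -0.47, -0.45 and -0.59 for H2-K1 (0.862), 0.94, 1.03, 0.72 and -4.14 for H2-Ob (0.941) and 0.87, 1.22, 1.33 and -1.80 for Sgk1 (0.851), with 21-week-DB the lowest each time. For Gcsam it was 5.45, 5.40, 4.67 and 5.34, with 21-week-WT the lowest (0.851). For Apod, a lipid carrier, it was -5.25, -5.31, -3.85 and -5.21, with 21-week-WT the highest (0.932). For Clec9a against Langerhans-like cells it was 3.98, 6.48, 3.85 and 4.14, with 12-week-DB the highest (0.889), where the 27 Langerhans-like cells held 0 UMIs. For Fam189a2 against Langerhans-like cells it was -6.77, -6.82, -6.67 and -5.72, with 21-week-DB the highest (0.867). For Ltc4s, leukotriene C4 synthase, it was -5.39, -5.07, -5.35 and -2.85, with 21-week-DB the highest (0.873). The 21-week-DB values rest on 4 cDC1.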

How the results depend on the processing

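For genes with values in the edgeR tests, 1173 results under other settings kept direction and side of the threshold, 96 were no longer past it, 7 came past it and 5 changed sign. Those 5 were of class II chains that had not passed, with H2-Ab1 against cDC2 at -0.17 after thinning, -0.0659 with no filter and from -0.0467 (without 12-week-DB) to 0.10 (without 21-week-DB) with 1 library left out, and H2-Eb1 at -0.0669 and -0.0117 under the first 2. Counts of genes moved more. Against cDC2, the genes higher and lower in cDC1 were 176 and 262 after thinning and 1109 and 1309 with only the 2 classes fitted, and 1321 were lower with no filter on low counts. Leaving out 1 library gave 336 to 876 higher and 416 to 907 lower, with the lowest counts without 21-week-WT, and 368 and 495 without 12-week-WT. Against Langerhans-like cells they were 217 and 283 after thinning and 330 and 496 with only the 2 classes, and leaving out 1 library gave 396 to 777 higher and 679 to 968 lower, with 396 without 21-week-WT, 459 without 12-week-WT and 477 without 12-week-DB. Between Cd207+ and Cd207- cells, with few cells per sum, they were 11 and 2 with DESeq2, 1 and 1 after thinning, 103 and 75 with no filter, 11 and 1 with no library block, and 2 to 57 and 1 to 35 with 1 library left out (52 and 31 without 12-week-DB, 2 and 1 without 12-week-WT, 57 and 35 without 21-week-WT).

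The cDC1 share in 12-week-WT was 1.23% with fewer than 2 C1q UMIs, 0.854% after thinning, 6.90% of antigen-presenting cells and 3.08% of these after thinning. In 12-week-DB it was 0.248% after thinning, 4.53% of antigen-presenting cells and 1.34% of these after thinning. In 21-week-WT it was 2.48% with at most 5% mitochondrial UMIs, 1.39% with at least 2 Xcr1 UMIs, 2.66% with Xcr1 or Clec9a, 0.824% after thinning, 7.25% of antigen-presenting cells and 2.67% of these after thinning. In 21-week-DB it was 0.0115% with at least 2 Xcr1 UMIs, 0% after thinning, 0.930% of antigen-presenting cells and 0% of these after thinning. With antigen-presenting cells as the denominator, the ratio of shares was 0.657 for DB to WT at 12 weeks, 0.128 at 21 weeks and 0.205 for 21 to 12 weeks in DB. Each ratio of DB to WT that could be computed lay below 1.

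Between libraries, 324 results moved by less than their counting error, 59 moved by more and 17 changed sign. Genes at least 2-fold higher in 12-week-DB numbered 10, against 16, without the richest cell. Without that cell Mcpt2, Cma1, Ccl17 and Mfge8 were at -1.64, -0.53, -0.046 and 0.39 at 12 weeks, and Mfge8 at 0.015 between the WT libraries. With likely doublets removed Mfge8 was at 0.60 and Cxcl2 at 0.95 at 12 weeks, and Mfge8 at 0.32 between the WT libraries. With at least 2 Xcr1 UMIs, Mcpt2, Cma1, Mfge8 and Cxcl2 were at -1.48, -0.31, 0.63 and 0.92 at 12 weeks and Mfge8 at 0.60 between the WT libraries. The same limit leaves 1 cell in 21-week-DB, and Il1b and Csf2rb were then at -0.74 and -0.41 against 21-week-WT and at -1.66 and -0.81 against 12-week-DB. The cause of the other changes was not tested.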
